A study of Mus musculus with 2 samples.

Results

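Vim, Lgals1, Lgals3, S100a4, S100a6, S100a10, S100a11, Anxa2 and Anxa5 are 9 of the 32285 genes counted in single splenic CD8+ T cells that were rested or stimulated for 30 h. They encode vimentin, 2 galectins, 4 S100 proteins and 2 annexins. They were chosen by name, with their levels and shares of cells across the 6 conditions already known, so those values are a description of the choice and no test is made on them. Their rows were read from the gene list of the matrix, and all 9 passed the minimum of 10 CPM (UMIs of a gene per 1000000 UMIs of the condition) in each of the 10 comparisons.

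The series is about how T cells perceive antigen through long-term Erk and NFAT signals, both of which act downstream of the T cell receptor. The cells came from the spleen of wild-type mice and, per the deposited key, were placed on streptavidin plates coated with biotinylated H-2Db MHC monomers carrying 1 of 2 peptides. The peptide named M9C was coated at 20, 2 and 0.2 pmol and the peptide named L6F at 80 and 20 pmol. The control cells were rested for the same time. The 2 peptides differ at positions 6 and 9, counted from 1 at the first residue. From the M9C to the L6F peptide the changes are F6L and M9C, the second of which is also the name of a peptide. The sources used here give neither the mice's age nor which T cell receptor the cells carried. Each condition was 1 culture marked with 1 hashtag antibody, and all 6 were pooled into 1 droplet lane, so the spread between cultures is unknown. Every interval below covers counting error only.

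A cell entered a condition when its top hashtag had at least 20 counts and at least 80% of its hashtag counts, and it was used when it held at least 500 genes. This left 755 rested cells, 1869, 1703 and 1589 cells at 20, 2 and 0.2 pmol M9C, and 2207 and 2477 cells at 80 and 20 pmol L6F. The filter on genes removed 52.3% of the called rested cells and at most 3.30% of those of any stimulated condition. The median rested cell held 1056 UMIs (unique molecular identifiers, each standing for a captured transcript), against 6050.0 to 7114 in the stimulated conditions. Where no UMI was counted, the level could still be as high as 3.26 CPM at rest and 0.264 CPM after stimulation. Of the used rested cells 93.0% carried at least 3 UMIs of the CD8 T cell markers, and of the stimulated cells 98.8 to 99.3% did. These markers are Cd8a and Cd8b1 with Cd3 and T cell receptor genes, and Trbc2 led in each condition. The share therefore gauges T cells and not CD8 cells. A Cd8a or Cd8b1 UMI was seen in 579 of the 755 shallower rested cells. It was seen in 1807, 1621 and 1527 cells at 20, 2 and 0.2 pmol M9C, and in 2101 and 2358 at 80 and 20 pmol L6F. The sort removed dead cells and did not select for CD8.

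Vimentin is the type III intermediate filament of leukocytes and mesenchymal cells, and in lymphocytes it forms a cage around the nucleus that gives the resting cell stiffness. Galectins bind beta-galactoside sugars on surface glycoproteins and are released without a signal peptide. S100 proteins are small proteins with a pair of EF hands, and most are calcium sensors that bind other proteins when calcium rises. Annexins bind acidic phospholipids in the presence of calcium, and S100A10 and S100A11 are among the S100 partners of annexins. In T cells several of these genes are textbook markers of antigen-experienced cells.

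The genes lie on 5 chromosomes of GRCm38. By GENCODE vM21, Vim is at chr2:13573927-13582826, Lgals3 at chr14:47367751-47386160, Lgals1 at chr15:78926725-78930465 and Anxa2 at chr9:69453620-69491795, all on the plus strand. Anxa5 is on the minus strand at chr3:36448923-36475894. The 4 S100 genes are also on chromosome 3, in pairs of close neighbours that lie far from each other. S100a4 (chr3:90603771-90606045) lies 6.84 kb from S100a6 (chr3:90612882-90624181), and S100a11 (chr3:93520488-93526287) lies 28.8 kb from S100a10 (chr3:93555080-93564643). An antisense gene, Gm16144, overlaps exons of Anxa2, and whether the counting used strand is not given in the sources used here.

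RefSeq start sites were found for 7 of the 9 genes, and 4 of their upstream windows of 250 bases are shown because they stand for the patterns described below. Vim and Lgals3 differed between the 2 peptides, S100a11 was lower after every stimulus, and Anxa2 was not past 2-fold in any comparison. The windows end at the base before the RefSeq start of GRCm38.p6. For Vim, Lgals3, S100a11 and Anxa2 that start lies inside the GENCODE span given above. They are chr2:13574061-13574310, chr14:47373610-47373859, chr3:93520246-93520495 and chr9:69453433-69453682, in that order and on the plus strand. Capitals mark the letters of an AP-1 motif (TGANTCA) and of the KLF motif CACCC, both searched on either strand.
Vim: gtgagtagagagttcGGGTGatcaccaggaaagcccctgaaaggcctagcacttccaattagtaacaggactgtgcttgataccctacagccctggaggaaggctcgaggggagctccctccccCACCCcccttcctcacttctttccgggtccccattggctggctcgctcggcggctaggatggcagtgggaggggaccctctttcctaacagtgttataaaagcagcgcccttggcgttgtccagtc
Lgals3: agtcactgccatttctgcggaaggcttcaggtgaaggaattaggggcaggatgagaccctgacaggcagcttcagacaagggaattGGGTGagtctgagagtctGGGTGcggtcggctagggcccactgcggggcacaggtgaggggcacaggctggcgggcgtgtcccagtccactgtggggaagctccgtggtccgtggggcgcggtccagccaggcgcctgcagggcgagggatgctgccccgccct
S100a11: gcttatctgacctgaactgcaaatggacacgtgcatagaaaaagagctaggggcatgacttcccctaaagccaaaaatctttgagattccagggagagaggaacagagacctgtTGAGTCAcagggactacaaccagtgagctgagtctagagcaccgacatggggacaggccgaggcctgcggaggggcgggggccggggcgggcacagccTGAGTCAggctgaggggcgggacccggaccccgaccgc
Anxa2: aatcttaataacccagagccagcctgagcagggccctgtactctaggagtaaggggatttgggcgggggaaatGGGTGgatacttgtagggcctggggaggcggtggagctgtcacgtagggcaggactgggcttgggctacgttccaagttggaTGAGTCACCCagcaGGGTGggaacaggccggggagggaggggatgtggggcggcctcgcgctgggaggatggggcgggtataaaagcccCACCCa
The AP-1 letters occurred 2 times before S100a11, the first base lying 136 and 38 bases before the start, and 1 time before Anxa2, 95 bases before the start, where they overlap a KLF match. Vim and Lgals3 had no AP-1 match in these windows. Of 27025 mouse promoter windows of the same length 6.87% held the AP-1 letters, against 2 of the 7 member windows, and 51.3% held the KLF letters, against 5 of the 7. The letters GGAAA, the core of NFAT sites, were on either strand in 55.6% of all windows and in 3 of the 7. A match is a description of letters and not of a bound site.

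Vim was highest in rested cells and lowest at the high doses of M9C. It stood at 543 CPM in rested cells, at 119, 138 and 206 CPM at 20, 2 and 0.2 pmol M9C, and at 453 and 319 CPM at 80 and 20 pmol L6F. The counting intervals of the 6 conditions did not overlap one another, and the order ran opposite to dose for M9C and with dose for L6F. Against rested cells Vim was 4.56-fold lower at 20 pmol M9C (95% counting interval 4.12 to 5.05), 3.92-fold lower at 2 pmol (3.54 to 4.34) and 2.63-fold lower at 0.2 pmol (2.39 to 2.90). At 80 and 20 pmol L6F it was 1.20-fold (1.09 to 1.31) and 1.70-fold (1.55 to 1.87) lower, which does not pass 2-fold. A ratio is called past 2-fold here where its interval also excludes equality.

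**Figure D1:**
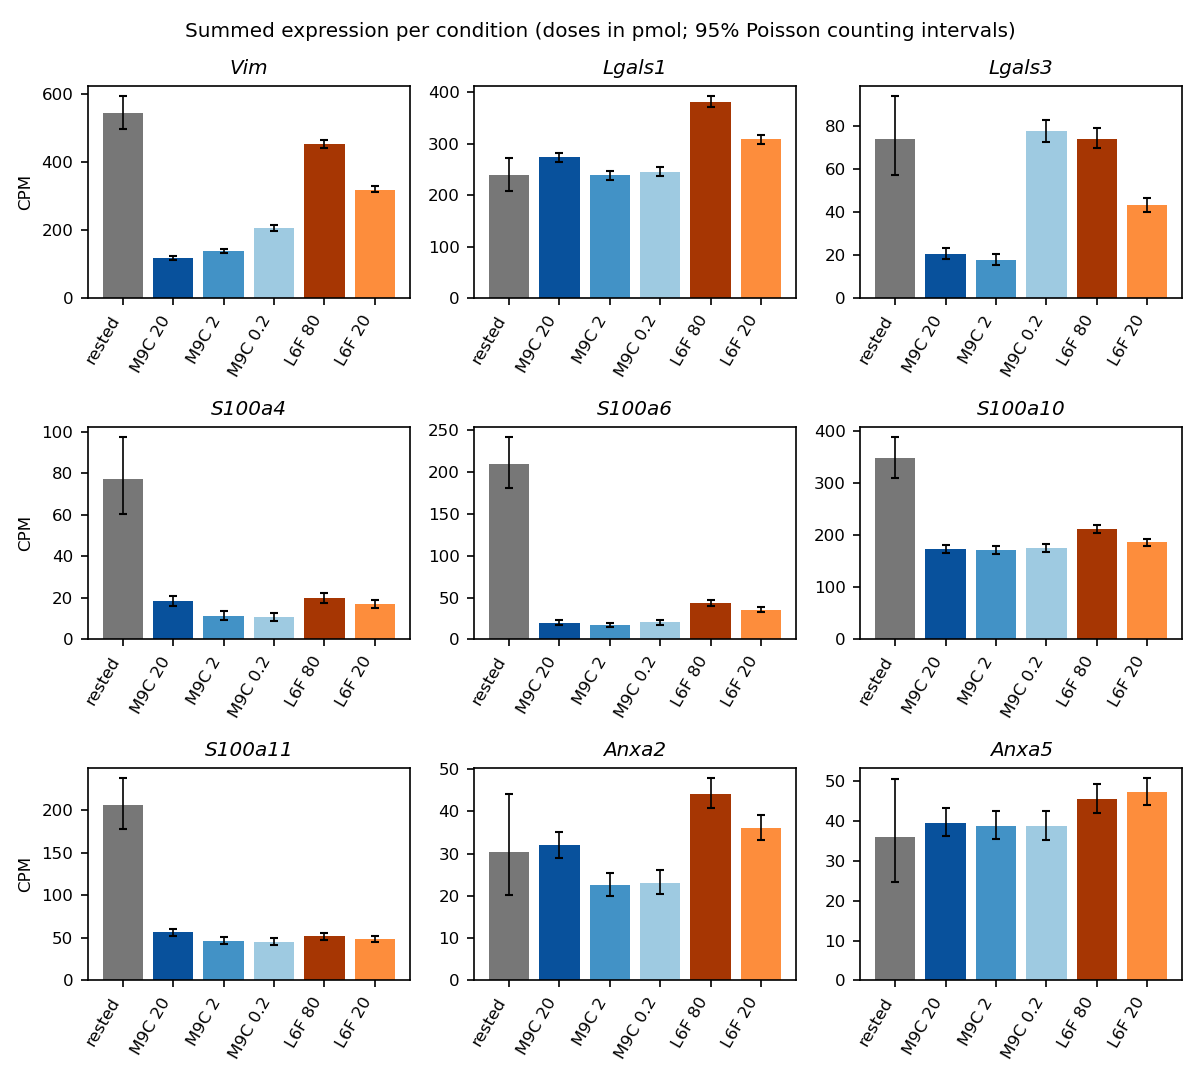
Bars show the CPM of each of the 9 genes in the 6 conditions (doses in pmol), each from 1 culture, with 95% Poisson counting intervals. S100a4, S100a6 and S100a11 are highest in rested cells, Vim is lower in the M9C than in the L6F conditions, and Lgals3 is low at 20 and 2 pmol M9C and not at 0.2 pmol.

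These ratios are on the scale of a share of all transcripts, and stimulated cells held far more transcripts. Counted per cell, Vim was at 0.661 UMIs in rested cells, 0.822, 0.974 and 1.48 UMIs at 20, 2 and 0.2 pmol M9C, and 2.83 and 2.06 UMIs at 80 and 20 pmol L6F. On that scale no stimulated condition was below rest, and 90.7 to 91.8% of all genes measured were at least 2-fold higher than at rest. Lgals1 went from 0.291 UMIs per rested cell to 1.68 to 2.39 UMIs per stimulated cell. S100a6 stayed lower than in rested cells (0.256 UMIs) in 4 of the 5 stimulated conditions, at 0.118 to 0.231 UMIs, and was at 0.273 UMIs at 80 pmol L6F. What part of this is RNA content and what part is capture of RNA by the droplets was not tested.

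Lgals1 encodes galectin-1, a secreted dimer known for acting on activated T cells. Its level was 239 CPM in rested cells, 274, 239 and 246 CPM at 20, 2 and 0.2 pmol M9C, and 382 and 309 CPM at 80 and 20 pmol L6F. The interval of rested cells (209 to 273 CPM) overlapped those of all 3 M9C doses and lay below both L6F doses. Lgals1 was 1.60-fold higher at 80 pmol L6F than at rest (1.40 to 1.84) and 1.29-fold higher at 20 pmol (1.13 to 1.49). Neither passes 2-fold, although with only those cells that had a Cd8a or Cd8b1 UMI the level at rest was 172 CPM and at 80 pmol L6F 368 CPM, a log2 ratio of 1.09.

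Lgals3 encodes galectin-3, which has a single sugar-binding domain and forms lattices through its N-terminal tail. It was at 74.0 CPM in rested cells, at 20.7, 17.9 and 77.6 CPM at 20, 2 and 0.2 pmol M9C, and at 74.1 and 43.3 CPM at 80 and 20 pmol L6F. Rested cells, 0.2 pmol M9C and 80 pmol L6F had overlapping intervals, 20 pmol L6F stood alone in the middle, and 20 and 2 pmol M9C overlapped at the bottom. Against rested cells Lgals3 was 3.57-fold lower at 20 pmol M9C (2.69 to 4.67) and 4.14-fold lower at 2 pmol (3.11 to 5.47), while at 0.2 pmol M9C (1.05-fold, 0.819 to 1.36) and at 80 pmol L6F (1.00-fold, 0.783 to 1.30) the intervals included equality. At 20 pmol L6F it was 1.71-fold lower (1.31 to 2.20), short of 2-fold. The rested level rests on few cells, as the Lyz2 check below shows.

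S100a6, also called calcyclin, had the lowest ratios to rest of the 9 genes. It stood at 210.0 CPM in rested cells, at 20.1, 16.8 and 20.3 CPM at 20, 2 and 0.2 pmol M9C, and at 43.7 and 35.8 CPM at 80 and 20 pmol L6F. The 3 M9C intervals overlapped, and both L6F conditions lay above them and below rest. S100a6 was 10.4-fold (8.62 to 12.6), 12.5-fold (10.2 to 15.3) and 10.3-fold (8.50 to 12.6) lower at the 3 M9C doses and 4.81-fold (4.07 to 5.67) and 5.87-fold (4.96 to 6.92) lower at 80 and 20 pmol L6F.

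S100a4, a regulator of non-muscle myosin that is known from migrating cells, was at 77.3 CPM in rested cells, at 18.6, 11.4 and 10.6 CPM at 20, 2 and 0.2 pmol M9C, and at 19.8 and 17.0 CPM at 80 and 20 pmol L6F. Its ratio to rest ran from 3.90-fold lower at 80 pmol L6F (2.96 to 5.08) to 7.26-fold lower at 0.2 pmol M9C (5.34 to 9.82). Unlike Vim and S100a6, it did not separate the peptides at 20 pmol, with a log2 ratio of M9C over L6F of 0.13 (-0.13 to 0.39), or -0.46 with each cell weighted equally. Its rested level rests on 71 UMIs. With each cell weighted equally, the log2 ratios to rest of S100a4 were -0.36 at 80 pmol and -0.75 at 20 pmol L6F, against -1.96 and -2.19 from summed counts, and no longer passed 2-fold.

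S100a11, which pairs with annexin A1, was at 206 CPM in rested cells, at 56.3, 46.6 and 45.3 CPM at 20, 2 and 0.2 pmol M9C, and at 51.6 and 48.4 CPM at 80 and 20 pmol L6F. The 5 stimulated values lay close together, and S100a11 was 3.65-fold (3.10 to 4.29) to 4.54-fold (3.83 to 5.38) lower than at rest in all of them. S100a10, the p11 subunit that forms a tetramer with annexin A2, was at 347 CPM in rested cells, at 173, 171 and 174 CPM at 20, 2 and 0.2 pmol M9C, and at 212 and 186 CPM at 80 and 20 pmol L6F. Its ratio sat at the edge of the rule. S100a10 was 2.00-fold lower at 20 pmol M9C (1.78 to 2.25) and 2.03-fold lower at 2 pmol (1.80 to 2.29), both just past 2-fold, and 1.99-fold lower at 0.2 pmol (1.76 to 2.24), just short of it. At 80 and 20 pmol L6F it was 1.64-fold and 1.87-fold lower.

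The annexins moved little against rest. Anxa2, a membrane scaffold that binds actin and phosphoinositides, was at 30.5 CPM in rested cells, at 32.0, 22.6 and 23.1 CPM at 20, 2 and 0.2 pmol M9C, and at 44.2 and 36.2 CPM at 80 and 20 pmol L6F. Its log2 ratios to rest lay between -0.43 and 0.54, and the interval included equality in all 5. Anxa5, the annexin used as a probe for exposed phosphatidylserine, was at 35.9 CPM in rested cells, at 39.5, 38.7 and 38.7 CPM at the falling M9C doses, and at 45.5 and 47.1 CPM at 80 and 20 pmol L6F. Its log2 ratios lay between 0.11 and 0.39, again with equality in every interval. The rested values of Anxa2 and Anxa5 come from 28 and 33 UMIs, so their intervals are wide, for Anxa5 at 20 pmol M9C from -0.37 to 0.69 on the log2 scale.

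Counted over the 9 genes, 6 were at least 2-fold lower than at rest at 20 pmol M9C, where 16% of the 7779 genes measured were, and 6 at 2 pmol, where 16.4% were. These were Vim, Lgals3 and the 4 S100 genes at both doses. At 0.2 pmol M9C 4 were (Vim, S100a4, S100a6 and S100a11), beside 16.3% of all genes. At 80 and 20 pmol L6F 3 were (S100a4, S100a6 and S100a11), beside 13.3% and 14% of all genes. None of the 9 was at least 2-fold higher than at rest in any stimulated condition, beside 16.9%, 16.7% and 16.5% of all genes at the falling M9C doses and 13.5% and 14.3% at 80 and 20 pmol L6F. The median log2 ratio of the 9 genes was -1.83, -1.97 and -0.99 at 20, 2 and 0.2 pmol M9C and -0.26 and -0.77 at 80 and 20 pmol L6F, where that of all genes measured lay between 0.07 and 0.10. The genes were chosen with these ratios known and the 5 comparisons share the rested cells, so nothing is read from the counts.

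**Figure D2:**
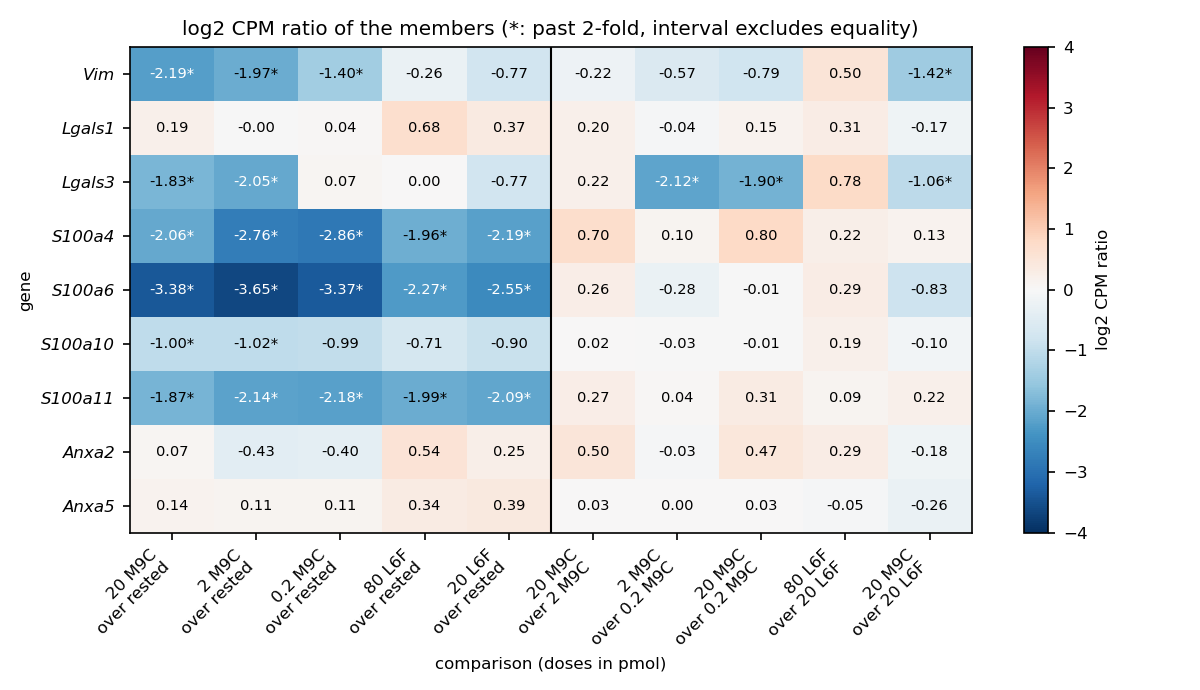
Each square gives the log2 CPM ratio of a gene (row) in 1 of the 10 comparisons (column, doses in pmol), blue where the first condition is lower and red where it is higher, with a star where the ratio passes 2-fold and its counting interval excludes equality. Stars left of the line, against rested cells, stand at S100a4, S100a6 and S100a11 in all 5 columns, and right of the line, among stimulated cells, only at Vim and Lgals3.

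The rested control differs from the other conditions in depth and in which cells passed the filter, and the members varied with depth inside it. In the shallowest, middle and deepest of 3 equal groups of rested cells Vim stood at 371, 424 and 709 CPM, Lgals3 at 17.9, 11.1 and 143 CPM and S100a4 at 35.8, 3.72 and 146 CPM, whereas S100a10 stood at 366, 331 and 347 CPM. With at least 1000 genes per cell only 47 rested cells were left, and the log2 ratios to rest at 80 pmol L6F then turned negative for Anxa2 (-1.42), Lgals1 (-1.17) and Lgals3 (-2.19), and that of Vim was -1.19. At 20 pmol L6F Vim was then at -1.69 and at 0.2 pmol M9C Lgals3 at -2.09, so that these too passed 2-fold. In the stimulated conditions depth went the other way for some genes. At 80 pmol L6F S100a6 was at 94.0, 32.0 and 32.3 CPM and S100a4 at 49.2, 14.7 and 12.1 CPM from the shallowest to the deepest cells, and Vim at 586, 435 and 414 CPM. The part of depth in the ratios to rest was not tested.

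The comparisons among stimulated cells, whose median depths lay within 6050.0 to 7114 UMIs, asked how dose and peptide relate to these genes. For M9C, Lgals3 was the only one of the 9 past 2-fold. It was 4.35-fold lower at 2 than at 0.2 pmol (3.74 to 5.07) and 3.74-fold lower at 20 than at 0.2 pmol (3.26 to 4.30), where 0.0719% and 0.143% of all genes measured were at least 2-fold lower. Between 20 and 2 pmol its log2 ratio was 0.22 (-0.05 to 0.48), and none of the 9 passed 2-fold there, beside 0.0288% of all genes higher and 0.0432% lower. The Lgals3 step therefore lay between 2 and 0.2 pmol in these 3 cultures.

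Vim went the same way in smaller steps, with log2 ratios of -0.57 (-0.67 to -0.48) for 2 over 0.2 pmol and -0.22 (-0.32 to -0.12) for 20 over 2 pmol M9C. S100a4 and Anxa2 went the other way, with log2 ratios for 20 over 0.2 pmol of 0.80 (0.48 to 1.13) and 0.47 (0.24 to 0.70). With each cell weighted equally that of S100a4 was 0.12. S100a11 (0.31, 0.15 to 0.48) and Lgals1 (0.15, 0.08 to 0.23) were also higher at 20 pmol beyond counting error. S100a6, S100a10 and Anxa5 had log2 ratios of -0.01, -0.01 and 0.03 for the same step, with equality inside each interval. By counting error alone 4 of the 9 genes were higher at 20 than at 0.2 pmol and 2 were lower, beside 8.43% and 8.27% of all genes.

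For L6F, 80 pmol stood above 20 pmol in most of the 9 genes. The log2 ratios were 0.78 (0.64 to 0.92) for Lgals3, 0.50 (0.45 to 0.56) for Vim, 0.31 (0.25 to 0.36) for Lgals1, 0.29 (0.12 to 0.46) for Anxa2, 0.29 (0.12 to 0.45) for S100a6 and 0.19 (0.12 to 0.27) for S100a10. These 6 were higher beyond counting error, as were 6.87% of all genes measured, and none of the 9 was lower, against 8.02% of all genes. S100a4 (0.22), S100a11 (0.09) and Anxa5 (-0.05) had intervals that included equality. No gene of the whole table, member or not, passed 2-fold between these 2 doses (0% higher and 0% lower).

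At the matched dose of 20 pmol, Vim was 2.68-fold lower with M9C than with L6F (2.53 to 2.84), and Lgals3 was 2.09-fold lower (1.81 to 2.41). Without cells holding 3 or more marker UMIs of another cell type the log2 ratio of Lgals3 was -0.92, which is short of 2-fold. With all cells Vim and Lgals3 were the 2 members past 2-fold, where 0.756% of all genes measured were at least 2-fold lower and 0.884% at least 2-fold higher. S100a6 followed at 1.78-fold lower (1.53 to 2.07), Anxa5 at 1.19-fold (1.07 to 1.34), Lgals1 at 1.13-fold (1.08 to 1.18) and S100a10 at 1.07-fold (1.02 to 1.13). S100a11 was the only one higher with M9C beyond counting error, by 1.16-fold (1.05 to 1.29). By counting error alone 1 member was thus higher and 6 lower, beside 21% and 17.6% of all genes. For Anxa2 the log2 ratio was -0.18 (-0.36 to 0.01). Pairs at unlike doses are given by their values only. At 0.2 pmol M9C, the lowest dose of that peptide, Vim (206 CPM) was still below both L6F values, whereas Lgals3 (77.6 CPM) was at the level of 80 pmol L6F (74.1 CPM).

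Shares of cells were also compared after thinning each cell to 1000 UMIs. At that depth most cells held no UMI of a given member, so a share tends to follow the CPM. It cannot tell more cells with a transcript from more transcripts per cell. The thinning kept 464 of the 755 rested cells and 1862, 1698, 1586, 2200 and 2467 cells of the stimulated conditions. Vim was then seen in 34.9% of rested cells, in 11.7%, 12.0% and 17.2% of cells at 20, 2 and 0.2 pmol M9C, and in 33.6% and 26.0% at 80 and 20 pmol L6F. Without thinning the shares were 35.0%, 42.4%, 44.8%, 55.5%, 77.9% and 67.6% in the same order. Lgals1 was seen in 12.3% of thinned rested cells (9.44 to 15.6%) and in 19.4 to 28.5% of the stimulated ones. At the M9C doses the share of cells with Lgals1 lay above the interval at rest while the CPM intervals overlapped, so no order is read from it.

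S100a6 was seen in 11.4% of thinned rested cells, in 1.07 to 2.00% of M9C cells and in 3.77% and 3.32% at 80 and 20 pmol L6F. S100a11 was seen in 15.9% of rested cells and in 4.30 to 5.41% of stimulated ones, and S100a10 in 29.7% and in 15.5 to 18.6%. Lgals3 was in 3.45% of rested cells, in 1.50%, 2.00% and 5.04% at 20, 2 and 0.2 pmol M9C, and in 5.41% and 3.16% at 80 and 20 pmol L6F. S100a4 was in 3.45% and in 1.24 to 2.95%, Anxa2 in 2.37% and in 2.40 to 4.77%, and Anxa5 in 2.80% and in 3.60 to 4.58%. Lyz2, a macrophage lysozyme gene that T cells lack, was seen in 0.0537% and 0% of thinned cells at 20 and 2 pmol M9C. No cell held 3 or more Lyz2 UMIs there. Free RNA of the members would come from the T cells themselves, so the Lyz2 share does not gauge it. In the other conditions nearly all Lyz2 UMIs lay in 1 to 4 cells, so its share there (1.08% at rest) is no gauge of free RNA either. Of 15 used cells rich in haemoglobin UMIs, with a median of 7986 UMIs, 8 held Vim, 10 S100a10, 4 Anxa5, 3 S100a11, 3 Anxa2 and 2 Lgals1. Lgals3, S100a4 and S100a6 were each seen in 0 of them. Whether this was free RNA was not tested.

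In cells thinned to 2000 UMIs, which kept 1573 to 2420 stimulated cells per condition, Vim at 80 pmol L6F was spread over the culture rather than held by a few cells. There 27.3% of cells had 1 Vim UMI, 24.4% had 2 or more and 2.42% had 5 or more, against 14.7%, 4.04% and 0.0546% at 20 pmol M9C. The variance of Vim UMIs was 1.35 to 1.82 times their mean in the stimulated conditions, where independent sampling alone gives a variance near the mean. Lgals3 was more uneven than Vim at 80 pmol L6F, as were S100a4 and S100a6. There 91.9% of cells had no Lgals3 UMI, and the variance was 2.87 times the mean. The 5% of cells with the most Lgals3 held 79.8% of its UMIs. For S100a4 and S100a6 the 5% of cells richest in the gene held 100% and 81.0%, and the variance was 2.87 and 2.32 times the mean. Where few cells hold a gene this share is high in any case, as for S100a11 (59.5%). At 0.2 pmol M9C the variance of Lgals3 was 3.26 times the mean, at 20 and 2 pmol 1.66 and 1.56 times. Such a ratio can rise with the mean, which was 0.163 UMIs at 0.2 pmol and 0.0404 and 0.0304 UMIs at 20 and 2 pmol. No order of unevenness between these doses is read from it. For S100a11 the variance was 1.03 to 1.16 times the mean and for Anxa5 1.02 to 1.11 times, in the stimulated conditions.

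**Figure D3:**
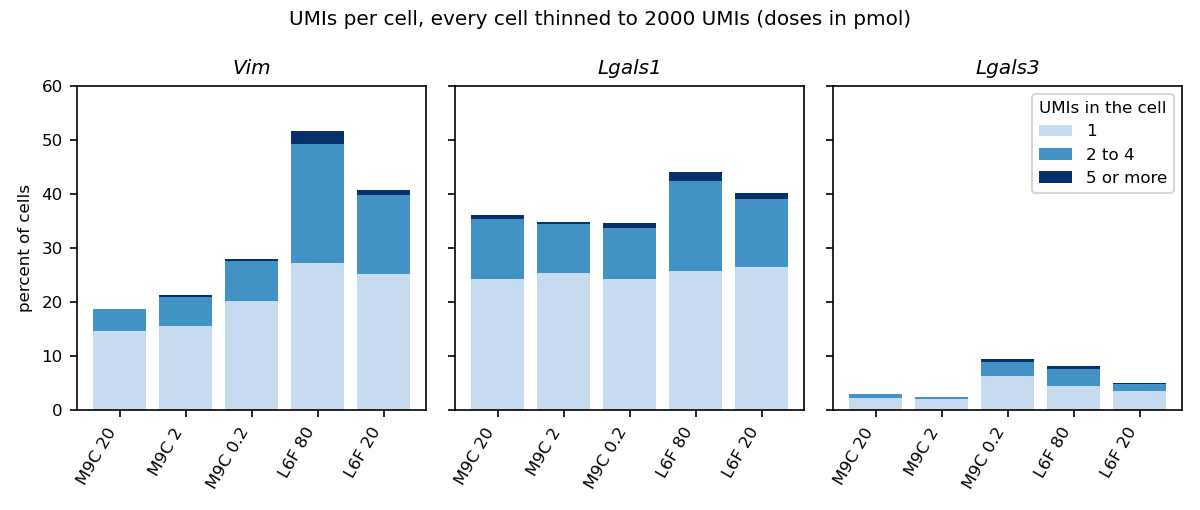
Stacked bars show the percent of cells with 1, 2 to 4, and 5 or more UMIs of Vim, Lgals1 and Lgals3 in the 5 stimulated conditions (doses in pmol), after every cell was thinned to 2000 UMIs. For Vim the part with 2 or more UMIs is 24.4% of cells at 80 pmol L6F and 4.04% at 20 pmol M9C, while Lgals3 stays under 10% of cells in all 5.

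Since galectin-3, vimentin and S100 genes are also abundant in myeloid cells, their counts were set beside Lyz2. Cells with 3 or more Lyz2 UMIs numbered 3 in rested cells, 0 at 20 and 2 pmol M9C, 1 at 0.2 pmol M9C, and 4 and 1 at 80 and 20 pmol L6F. The 3 rested cells held 132 of the 134 Lyz2 UMIs there. They also held 27 of the 68 rested Lgals3 UMIs (39.7%), 6 of the 28 Anxa2 UMIs (21.4%) and 27 of the 220 Lgals1 UMIs (12.3%). Of S100a11 they held 7.41%, of S100a4 7.04%, of Vim 2.20% and of S100a6 0.518%.

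In the stimulated conditions the same kind of cell held at most 1.69% of the UMIs of any member, which was S100a11 at 80 pmol L6F. Without every cell that had a Lyz2 UMI, Lgals3 was at 45.5 CPM in rested cells (32.7 to 61.8), at 20.6, 17.9 and 77.7 CPM at 20, 2 and 0.2 pmol M9C, and at 73.6 and 43.1 CPM at 80 and 20 pmol L6F. Leaving out these 5 rested cells thus put Lgals3 at rest below the interval it had with them, while each stimulated level moved by less than its interval. The log2 ratios of Lgals3 to rest became -1.15, -1.35 and 0.77 at 20, 2 and 0.2 pmol M9C and 0.69 and -0.08 at 80 and 20 pmol L6F. Anxa2 at rest moved from 30.5 to 24.4 CPM and Lgals1 from 239 to 199.9 CPM, and Vim from 543 to 536 CPM. Over the 464 thinned rested cells the genes that went most with Lgals3, named here after their values were seen, were the myeloid genes Hp (r = 0.50), Lyz2 (0.47) and Tyrobp (0.42).

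**Figure D4:**
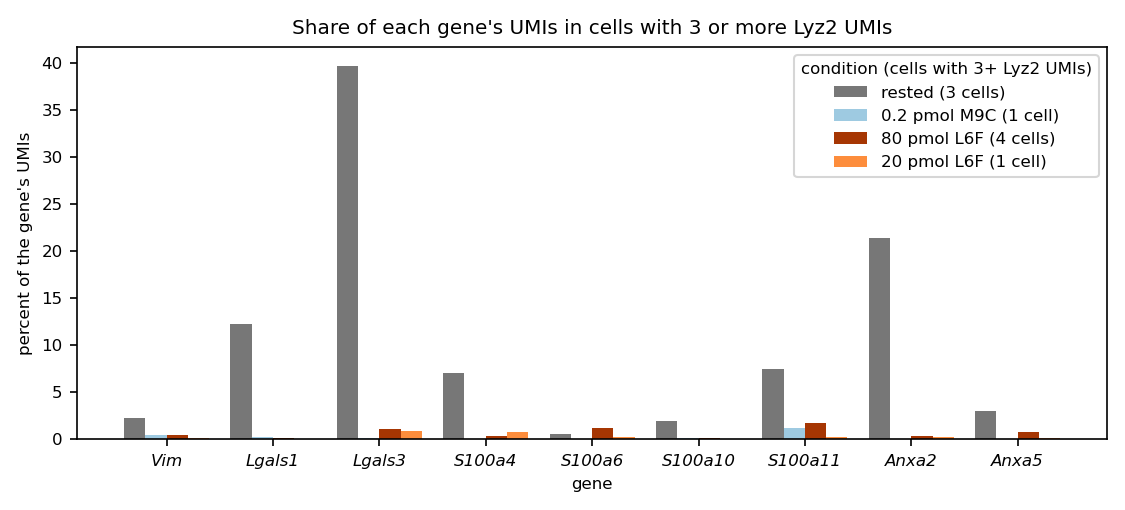
Bars give the percent of each gene's UMIs that lay in cells with 3 or more Lyz2 UMIs, in the 4 conditions that had such cells (number of cells in the legend). Lgals3 (39.7%), Anxa2 (21.4%) and Lgals1 (12.3%) stand out in rested cells, and no stimulated bar passes 1.69%.

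Markers of other cell types moved with some members. Summed over 14 macrophage and monocyte markers the level was 169 CPM in rested cells, 3.56, 3.59 and 13.7 CPM at 20, 2 and 0.2 pmol M9C, and 31.0 and 18.5 CPM at 80 and 20 pmol L6F, so that, as for Lgals3, 0.2 pmol stood above 2 and 20 pmol M9C and 80 above 20 pmol L6F. Of these markers 5 to 7 had a UMI per condition, and C1qa, C1qc, Cd14, Ms4a7 and Lyz1 were at 0 in all 6. The Lgals3 log2 ratio of 20 over 0.2 pmol M9C was -1.90 without cells of 3 or more such UMIs, as it was with them. The 7 gamma-delta T cell markers, of which 6 or 7 had a UMI and Trdc led, summed to 467 CPM at rest, 59.2 to 62.8 CPM with M9C, and 115 and 106 CPM at 80 and 20 pmol L6F, which is the order of peptides seen for Vim and S100a6. In only those cells with a Cd8a or Cd8b1 UMI, Vim was at 518 CPM at rest, 115, 135 and 202 CPM with falling M9C and 442 and 313 CPM at 80 and 20 pmol L6F.

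Without cells holding 3 or more marker UMIs of any other cell type, the 20 pmol M9C over L6F log2 ratio of Vim was -1.48. That setting leaves out, among others, the 20.6 to 23.7% of stimulated cells that had 3 or more B cell marker UMIs, of which Ighm led in each condition, while Pax5 was at 0 in all 6.

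Across single cells the members varied together only weakly. Pearson correlations of log2(1 + UMIs) over cells thinned to 1000 UMIs, for the 36 pairs of members, had medians of 0.12 in rested cells, 0.02, 0.06 and 0.06 at 20, 2 and 0.2 pmol M9C, and 0.11 and 0.08 at 80 and 20 pmol L6F. S100a4 with S100a6, neighbours on chromosome 3, was the highest pair in 80 pmol L6F cells at 0.38 and stood at 0.36 in rested cells, 0.09, 0.13 and 0.23 at falling M9C, and 0.29 at 20 pmol L6F. Lgals1 with S100a4 reached 0.39 in rested cells (464 cells). These values and their order depended on the thinning depth. At 2000 UMIs S100a4 with S100a6 stood at 0.24 at 80 pmol L6F, below Lgals3 with S100a4 (0.28), and at 0.39 at 0.2 pmol M9C, and the median over pairs at rest was 0.24 (49 cells). S100a10 with Anxa2, whose proteins form a complex, lay between 0.03 and 0.11 at 1000 UMIs. At 2000 UMIs this pair stood at 0.29 in rested cells (49 cells), 0.13 at 20 pmol M9C and 0.02 at 0.2 pmol M9C. Cells of 1 condition share a culture and a lane, and in counts this sparse such values are descriptions with no test.

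**Figure D5:**
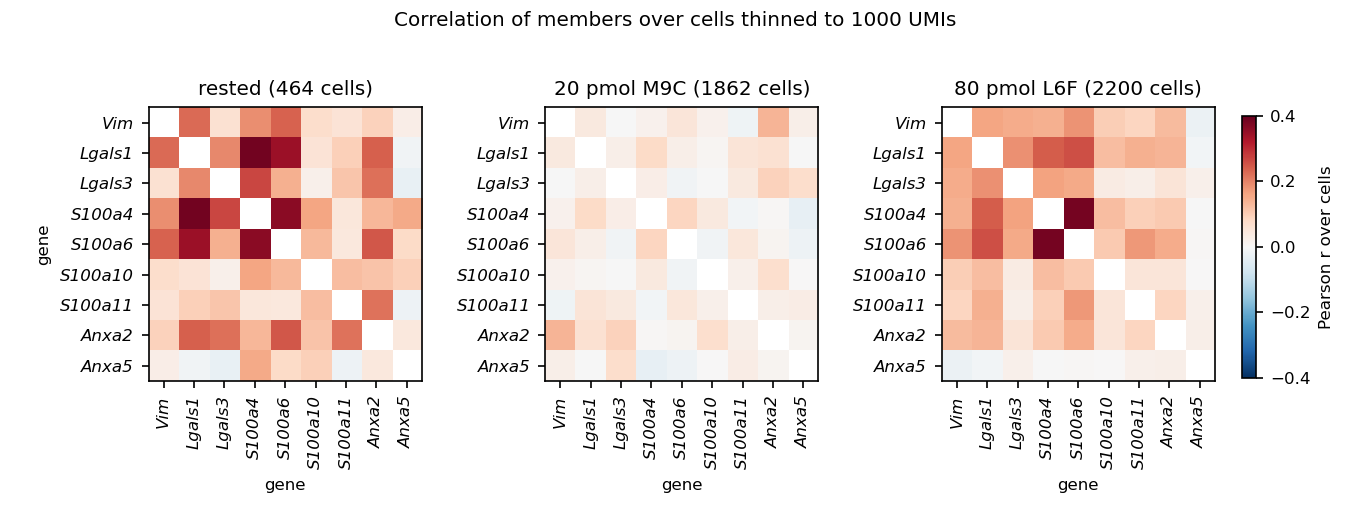
Squares give the Pearson correlation over cells of each pair of the 9 genes in rested, 20 pmol M9C and 80 pmol L6F cells, after thinning to 1000 UMIs (red positive, blue negative, the number of cells in each title). The S100a4 and S100a6 square is 0.36 in rested and 0.38 in 80 pmol L6F cells and 0.09 at 20 pmol M9C, where the median over the 36 pairs is 0.02.

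Cells with much Lgals3 also held more of some other members. In cells thinned to 2000 UMIs, 78 cells at 80 pmol L6F had 2 or more Lgals3 UMIs. Vim was seen in 80.8% of these (70.3 to 88.8%) and in 50.6% of the 2073 others, S100a4 in 20.5% (12.2 to 31.2%) against 2.03%, and Anxa2 in 20.5% against 8.15%. For Anxa5 the shares were 12.8% (6.32 to 22.3%) and 7.57%, within the interval. At 0.2 pmol M9C, 49 cells had 2 or more Lgals3 UMIs, with Vim in 51.0% (36.3 to 65.6%) against 27.3% and S100a6 in 18.4% (8.76 to 32.0%) against 3.22%. S100a10, S100a11, Anxa2 and Anxa5 had intervals there that included the share of the others. At 20 pmol M9C there were 13 such cells, and the interval of each of the 8 other members included the share of the rest.

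The 5 genes that went most with Lgals3 over 1586 cells at 0.2 pmol M9C were Ifng (0.24), the cytokine interferon-gamma, Gzmb (0.18), the protease granzyme B, S100a4 (0.15), Prf1 (0.15), the pore protein perforin, and Capg (0.13), an actin capping protein. Over 2200 cells at 80 pmol L6F they were Lgals1 (0.18), S100a4 (0.16), Gzmc (0.15), another granzyme, S100a6 (0.15) and Vim (0.15). A granzyme gene and S100a4 stand in both lists.

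The members were also read beside genes of memory-like CD8 T cells (Eomes, Ly6c2, Ctla2a, Il2rb, Ccl5, Cxcr3, Nkg7, Klrd1, Gzmm, Xcl1 and Itgal) summed in each cell thinned to 2000 UMIs. These genes did not move as 1 group. With M9C over L6F at 20 pmol Xcl1 was 10.3-fold higher, and Ctla2a, Ly6c2 and Eomes were 8.68-fold, 4.42-fold and 3.04-fold lower. Nkg7 stood highest, at 243 CPM at 0.2 pmol M9C and 285 CPM at 80 pmol L6F. Cells with 3 or more UMIs of the list are thus not shown to be 1 cell type. At 0.2 pmol M9C, 240 cells had 3 or more such UMIs. Lgals3 was seen in 19.2% of them (14.4 to 24.7%) and in 7.73% of the 1333 others, S100a6 in 10.8% against 2.40% and Lgals1 in 48.8% against 32.1%. At 80 pmol L6F, with 543 such cells, S100a6 was seen in 12.0% (9.36 to 15.0%) against 5.16%, Lgals3 in 12.2% against 6.78% and Vim in 57.8% against 49.6%. A split by the proliferation gene Mki67 showed less, with Lgals3 in 9.41% and 9.51% and S100a6 in 4.13% and 3.41% of cells with and without an Mki67 UMI at 0.2 pmol M9C.

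Other genes of the same families, and some genes with related names or partners, were given from lists. Of 12 genes listed with the S100 family 3 were measured. These were S100a1, S100a13 and S100pbp, a binding protein that is no S100 gene itself. S100a1 and S100a13 were at least 2-fold lower than at rest in all 5 stimulated conditions. S100a13 went from 279 CPM at rest to 34.0 CPM at 20 pmol M9C and 60.3 CPM at 80 pmol L6F. Of 8 genes listed with the galectins 4 were measured, 1 of them Lgals3bp, a galectin-binding glycoprotein that is no galectin. Lgals9, the gene of a tandem-repeat galectin, was 2.03-fold lower at 20 pmol M9C, and Lgals8, of the same type, 10.0-fold lower. Lgals7 was 3.21-fold higher there (38.5 against 12.0 CPM) and stood 2.00-fold higher with M9C than with L6F at 20 pmol (19.2 CPM with L6F). Its low rested level made the intervals against rest wide, 1.53 to 5.60 for the 2.77-fold at 2 pmol M9C.

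Of 10 other annexin genes 3 were measured, and Anxa7 was at least 2-fold higher in 4 of the 5 stimulated conditions. At 80 pmol L6F it stood at 28.8 against 14.1 CPM, 2.04-fold higher with a wide interval (1.18 to 3.86). Anxa6 was at 201 CPM at rest, 118 CPM at 20 pmol M9C and 188 CPM at 80 pmol L6F, short of 2-fold in each. Of 14 genes listed with the intermediate filaments and their linkers 5 were measured, 1 of them Inf2, an actin formin. Lmnb1, the gene of the nuclear filament lamin B1, was 3.57-fold higher at 20 pmol M9C and 3.99-fold higher at 80 pmol L6F (90.3 CPM at rest), opposite in sign to Vim, while Plec, the gene of the linker plectin, was 3.92-fold and 2.33-fold lower.

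Among 18 genes that are partners of the members or are often found with them in memory and effector T cells, all were measured. At each M9C dose 10 were at least 2-fold lower than at rest and 2 higher. Of all genes 16 to 16.4% were lower there and 16.5 to 16.9% higher. At 80 and 20 pmol L6F 6 and 7 were lower and 1 and 2 higher. Of all genes 13.3% and 14% were lower there and 13.5% and 14.3% higher. The list was chosen with earlier results of these data known, so nothing is read from the counts. Among the 18, those that were lower included Itga4, an integrin subunit (17.2-fold at 20 pmol M9C), Flna, the actin crosslinker filamin A (4.02-fold), and Emp3 (3.36-fold). Cd44, the hyaluronan receptor of activated cells, was 2.81-fold higher. Its rested level was only 9.79 CPM and its intervals were wide, 1.29 to 5.44 for the 2.47-fold at 20 pmol L6F. Of 9 genes for or carrying galectin ligands 7 were measured, and Cd7 was lower in all 5 conditions (71.8 CPM at rest and 0.542 to 2.10 CPM after stimulation). Between stimulated conditions none of these 18 and 9 genes passed 2-fold, beside at most 0.884% of all genes in either direction.

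By the distance between centred log2(CPM + 1) values over the 6 conditions, among 7890 genes, the genes nearest to Vim were Aldh2 (distance 0.52), A930006K02Rik (0.58) and Il10ra (0.61). For Lgals3 they were Eomes (1.04), Tesc (1.09) and Mtss1 (1.10), so no gene was close to its pattern. The nearest to Lgals1 were Galns (0.08), Cdc25b and Casp2, to S100a10 Stim1 (0.06), Mgat5 and Bin2, and to Anxa5 Ndufb3 (0.06), Ndufa11 and Smc4. S100a6 had Pglyrp2 (0.27), Mgst2 and Abi3, S100a4 Apol7e (0.37), Arl10 and D130040H23Rik, S100a11 Glipr1 (0.16), Rnf167 and Scaper, and Anxa2 Milr1 (0.29), Cdkn2d and Mpp1. No member was among another member's 3 nearest, and the closest pair of members was Lgals1 and Anxa5 at 0.36, followed by Lgals1 and Anxa2 at 0.38. Each distance rests on 6 values that share a lane, and on 1 culture each.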

How the data were processed

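Transcripts of 6 hashtagged cultures were counted in 1 droplet lane with 2 libraries, transcriptome and hashtag, which shared all 13439 barcodes. The deposited files hold raw UMI counts per gene and hashtag, made by the authors. Per the submitters' processing notes bcl2fastq and Cell Ranger 6.0.1 were used, with the build GRCm38, also called mm10. The sources used here do not give the annotation, strand setting or cell calling. The lowest barcode held 500.0 UMIs.

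A deposited key ties each hashtag to a condition. Of the barcodes 11671 had a top hashtag with at least 20 counts and 80% of hashtag counts, and 10600 of these passed the minimum of 500 genes and the limit of 10% mitochondrial UMIs. Doublets within 1 condition, 18.2% of random cell pairs, cannot be seen this way, and no other doublet caller was run. HTODemux (Seurat 5.3.0, R 4.3.3, quantile 0.99) called 10996 singlets and 2283 doublets. It was an alternative. It gave 9693 of the used cells the same call and called 785 of them doublets.

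UMIs were summed per condition and scaled to CPM with exact Poisson 95% intervals. Ratios have exact Clopper-Pearson intervals and shares exact binomial ones. These cover counting error only. A gene was compared where 1 of the conditions had 10 CPM or more, and with 1 culture per condition no test was made. The ratio rule was tested on simulated data of independent Poisson counts, the same assumption as that of the CPM and ratio intervals. That test therefore does not cover UMIs that cluster in cells. For Lgals3 at 80 pmol L6F the variance over cells was 2.87 times the mean. Python 3.11.15, numpy 2.4.6, scipy 1.17.1 and pandas 2.3.3 were used. Cells were thinned to 1000 or 2000 UMIs for shares and correlations. Positions come from GENCODE vM21, which held 32158 of the 32285 gene IDs, and upstream windows from RefSeq GRCm38.p6.

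The members and the gene lists were chosen with earlier results of these data known. All 9 members are named, with the 3 genes nearest to each by pattern, the 5 genes most correlated with Lgals3 at 0.2 pmol M9C and at 80 pmol L6F, and examples from the lists. Alternatives were other hashtag rules, gene and UMI filters, scalings, thinning depths, and cells left out.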

Additional observations from a re-analysis of the deposited data

Results flagged for a closer look

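The step from the lowest to the highest dose went opposite ways for the 2 peptides in Vim and Lgals3, and the difference between the peptides was not tested, since each dose was 1 culture. For Vim the log2 CPM ratio of the higher over the lower dose was -0.22 for 20 over 2 pmol M9C and -0.79 for 20 over 0.2 pmol M9C, and 0.50 for 80 over 20 pmol L6F. For Lgals3 it was -1.90 for 20 over 0.2 pmol M9C and 0.78 for 80 over 20 pmol L6F. Each of these intervals excluded equality. The Lgals3 step from 2 to 20 pmol M9C had the sign of the L6F step, at 0.22 (-0.05 to 0.48). Macrophage markers summed to 3.56 and 13.7 CPM at 20 and 0.2 pmol M9C and to 31.0 and 18.5 CPM at 80 and 20 pmol L6F. Without cells that had a Lyz2 UMI the Lgals3 ratios were -1.92 and 0.77. The dose ranges of the peptides meet only at 20 pmol, so the steps are not steps of the same size.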

How the results depend on the processing

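No paired analysis was possible because each condition was 1 culture. Over the alternatives that keep the CPM scale, the log2 ratios for M9C over L6F at 20 pmol were -1.48 to -1.41 for Vim, -1.24 to -0.92 for Lgals3, -1.27 to -0.76 for S100a6 and -0.46 to 0.32 for S100a4, whose sign turned. For 20 over 0.2 pmol M9C they were -0.84 to -0.78 for Vim, -1.97 to -1.89 for Lgals3, -0.38 to 0.06 for S100a6 and 0.12 to 1.04 for S100a4. HTODemux singlets and centring moved none of the 90 ratios of the 9 genes beyond their intervals. Ratios to rested cells depended on the scale and the cell filter.

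Counted as UMIs per cell, 4, 4 and 6 members were at least 2-fold higher than at rest at 20, 2 and 0.2 pmol M9C, and 6 and 6 at 80 and 20 pmol L6F, beside 90.7 to 91.8% of all genes. At least 2-fold lower were 0, 1 and 0 at the M9C doses and 0 and 0 at the L6F doses, and 1 for M9C over L6F at 20 pmol. No share of all genes is given beside these lower counts, and nothing is read from them. Among ratios to rest past 2-fold in CPM the sign turned for Vim (0.32, 0.56 and 1.16 at 20, 2 and 0.2 pmol M9C), Lgals3 (0.67 and 0.48 at 20 and 2 pmol M9C), S100a10 (1.50 and 1.51 there), S100a11 (0.64, 0.39 and 0.37 at falling M9C, 0.37 and 0.32 at 80 and 20 pmol L6F), S100a4 (0.45 at 20 pmol M9C, 0.40 and 0.22 at 80 and 20 pmol L6F) and S100a6 (0.0936 at 80 pmol L6F). Among the others it also turned for Vim and Lgals3 at 20 pmol L6F (1.64 each), Vim at 80 pmol L6F (2.10), S100a10 in the other 3 conditions (1.51 to 1.65), Anxa2 at 2 and 0.2 pmol M9C (2.10 and 2.16) and Lgals1 at 2 pmol M9C (2.53). CPM divides by the UMIs of a condition, and this scale divides by its cells. The median cell held 1056 UMIs at rest and 6050 to 7114 UMIs after stimulation. What lies behind that difference was not tested.

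With at least 1000 genes per cell, which left 47 rested cells, 8, 7 and 8 members were at least 2-fold lower at 0.2 pmol M9C and 80 and 20 pmol L6F, beside 12.1%, 10.1% and 10.7% of all genes. For the counts below the cause was not tested, no share of all genes is given beside them, and nothing is read from them. At 80 pmol L6F the members at least 2-fold higher than at rest were 0 as reported, and 1 with no filter on genes, 2 with each cell weighted equally, 2 without cells holding 3 or more marker UMIs of another cell type, 2 without the 5 cells richest in the gene, and 1 in cells with a Cd8a or Cd8b1 UMI. At 20 pmol L6F weighting cells equally gave 1. S100a4 was the 1 member at least 2-fold higher at 20 than at 0.2 pmol M9C in cells with a Cd8a or Cd8b1 UMI. Lower with M9C than L6F at 20 pmol was 1 member without cells of another type and 1 at 50 CPM or more. The settings by Cd8a or Cd8b1 and by macrophage markers were chosen after seeing the data.

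Depth limits the rested values, with 918920 UMIs in all, against at least 11376897 per stimulated condition.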
